A study of Homo sapiens with 2 samples.

Results

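The SLC25 genes encode the mitochondrial carriers, a family of small membrane proteins, each built from a repeated pair of membrane-spanning helices, that move metabolites across the inner mitochondrial membrane by alternately opening to the cytosol and to the matrix. They link the matrix to the rest of the cell: ADP and phosphate go in and ATP comes out, amino acids and carboxylic acids are exchanged between compartments, and cofactors made in the cytosol reach the enzymes that need them. Growing leukaemia cells rely on this traffic for respiration and for the supply of building blocks. The genes described here are those with a symbol of SLC25A followed by a number, without the mitochondrial iron carriers SLC25A28 and SLC25A37, as named by the platform annotation for probe sets that match a single gene. They numbered 43 of 19775 genes on the array and were read by 83 probe sets.

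Expression arrays were run on 2 samples. The eltrombopag sample was labelled as HL60 cells given the drug at 3 µg/ml for 36 h, and the untreated sample as HL60 cells without it; both were grown in RPMI with 10% serum. HL60 is an established human promyelocytic leukaemia line, and eltrombopag is a synthetic drug that activates the receptor for thrombopoietin and also chelates iron. The labels give the untreated cells no culture time and no vehicle, and call both samples haematopoietic stem in cell type, so a difference in time or vehicle cannot be told apart from one due to the drug. Each group holds 1 array, which limits the precision and allows no test, p-value or error between samples. All differences are therefore between 2 arrays, and in bulk RNA, fewer cells of a type and less RNA per cell cannot be told apart.

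Each probe set has a MAS5 signal, its brightness on a linear scale. Ratios set the eltrombopag signal over the untreated one and are given on a log2 scale. Signals below 56.9, the 60th percentile of both arrays pooled, were raised to that floor. A fold with 1 array at the floor is thus a lower bound. A gene with a signal above the floor on at least 1 array is called measured, and its probe set with the highest mean log2 signal stands for it. Signals of different probe sets are not comparable as levels, so each is compared only with itself. Of 10314 measured genes, the median log2 ratio was -0.12, and 63.4% had a ratio below 0. Another scaling of the arrays (median centring, quantile normalization or lowess) moved that median by 0.14, 0.11 and 0.10. Carriers above the floor on both arrays moved upwards under each of these scalings, and the 3 with 1 array at the floor moved by less than these under median centring and lowess.

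The promyelocyte markers were partly present: 7 of 10 on the array were measured, MPO among them with signals of 1467 in the eltrombopag and 1556 in the untreated sample, while ELANE, SPI1 and LYZ lay below the floor on both arrays. Of 8 stem and progenitor markers, 3 were measured. GATA2 had 2131 in the eltrombopag and 2589 in the untreated sample, and SPINK2 had 398 in the eltrombopag and 268 in the untreated sample. MEIS1 was above the floor with eltrombopag alone, at 57.7 against 52.4 in the untreated sample. CD34, KIT, PROM1, FLT3 and HLF lay below the floor on both arrays. Plasma cell markers, which the label HL60 does not account for, were measured in 11 of 12 genes; only FCRL5 lay below the floor on both arrays, and none was listed at 0. Their summed signal was 11095 in the eltrombopag and 17898 in the untreated sample, of which JCHAIN alone gave 4866 and 7972. Such a sum is compared only between the 2 arrays, not with that of another list, and is no measure of cell content. Ratios were below 0 in 10 of the 11 (90.9%), beside 63.4% of all measured genes, and DERL3 was 1.55-fold higher. At least 2-fold lower were 5 of the 11, beside 2.27% of all measured genes. These were IRF4 (5.16-fold), TNFRSF17 (4.28-fold), SLAMF7 (4.02-fold), POU2AF1 (2.95-fold) and SDC1 (2.41-fold). The promyelocyte markers summed to 3659 in the eltrombopag and 4534 in the untreated sample. Of other cell types, markers of B cells were measured in 3 of 6 genes, of T cells in 1 of 5, of erythroid cells in 3 of 4, and of fibroblasts and epithelia in 2 of 8. Among the measured ones, ratios were below 0 in 2 of 3, 0 of 1, 3 of 3 and 2 of 2, in the same order. The part of these differences in the carrier ratios was not tested.

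Upstream sequences are shown for 4 genes that stand at the ends of the family: SLC25A4, SLC25A42 and SLC25A15, the 3 with the lowest ratios, and SLC25A29, the one with the highest ratio among carriers above the floor on both arrays. They were picked after their values were seen. Each run is the 250 bases before the RefSeq start on GRCh38.p14, read on the strand of the gene, with matches on either strand to the GC box GGGCGG, the NRF1 half-site TGCGCA, the E box CACGTG and the CCAAT box CCAAT in capitals. SLC25A4 lies at chr4:185143016-185143265 (+), SLC25A42 at chr19:19063744-19063993 (+), SLC25A15 at chr13:40789361-40789610 (+) and SLC25A29 at chr14:100306445-100306694 (-).
SLC25A4: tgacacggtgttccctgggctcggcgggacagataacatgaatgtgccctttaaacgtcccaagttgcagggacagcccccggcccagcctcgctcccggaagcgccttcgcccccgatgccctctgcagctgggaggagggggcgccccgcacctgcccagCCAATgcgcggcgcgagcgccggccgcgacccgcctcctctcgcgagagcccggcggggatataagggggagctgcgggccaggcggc
SLC25A42: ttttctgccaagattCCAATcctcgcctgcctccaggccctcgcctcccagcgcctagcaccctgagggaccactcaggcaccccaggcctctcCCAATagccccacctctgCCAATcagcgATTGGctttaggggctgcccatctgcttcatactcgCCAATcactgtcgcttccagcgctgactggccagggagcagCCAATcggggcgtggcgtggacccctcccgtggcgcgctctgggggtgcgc
SLC25A15: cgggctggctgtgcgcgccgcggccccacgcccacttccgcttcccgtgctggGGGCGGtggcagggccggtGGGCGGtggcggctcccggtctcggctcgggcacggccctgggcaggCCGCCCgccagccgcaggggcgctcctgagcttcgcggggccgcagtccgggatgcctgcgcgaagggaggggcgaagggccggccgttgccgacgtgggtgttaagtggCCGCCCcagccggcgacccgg
SLC25A29: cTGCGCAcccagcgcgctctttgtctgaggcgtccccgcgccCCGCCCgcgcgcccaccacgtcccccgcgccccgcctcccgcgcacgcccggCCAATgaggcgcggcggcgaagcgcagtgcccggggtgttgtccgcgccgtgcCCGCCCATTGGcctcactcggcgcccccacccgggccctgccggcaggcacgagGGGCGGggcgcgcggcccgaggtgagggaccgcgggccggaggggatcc

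The SLC25A4 run held 1 CCAAT box and none of the other motifs. That of SLC25A42 held 6 CCAAT boxes alone, and that of SLC25A15 held 4 GC boxes alone. SLC25A29 held 3 GC boxes, 2 CCAAT boxes and 1 NRF1 half-site, with a GC box and a CCAAT box side by side but no shared base. None of the 4 motifs searched was present in all 3 carriers with the lowest ratios. Promoters were listed for 28 of the 33 measured carriers, and 22 of these genes held a GC box in at least 1 of their runs, 3 an NRF1 half-site, 7 an E box and 13 a CCAAT box. Among all 35116 promoters of this length, 42.6%, 6.89%, 6.34% and 32.0% held them in the same order; among 8500 measured genes with a promoter, 74.4%, 14.6%, 11.7% and 42.2% did. A match describes letters and is no evidence that a factor binds there.

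Of the 43 carriers, 33 were measured, 30 of them above the floor on both arrays and 3 on 1 array. No measured carrier differed by 2-fold: 0 of 33 were at least 2-fold higher, against 0.650% of all measured genes, and 0 were at least 2-fold lower, against 2.27%. Smaller differences leaned downwards. The ratio was below 0 for 26 of 33 carriers (78.8%), beside 63.4% of all measured genes, and the median log2 ratio was -0.30, with quartiles of -0.47 and -0.03. At 1.5-fold, 6 carriers were lower (18.2%), against 11.8% of all measured genes, and 0 were higher, against 3.49%. The 6 were SLC25A4, SLC25A42, SLC25A15, SLC25A24, SLC25A20 and SLC25A3. After median centring, 20 of 33 carriers (60.6%) had a ratio below 0, against 47.7% of all genes, and the lower side at 1.5-fold kept SLC25A4, SLC25A42 and SLC25A15, or 3 of 33 (9.09%) against 6.85%.

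**Figure D1:**
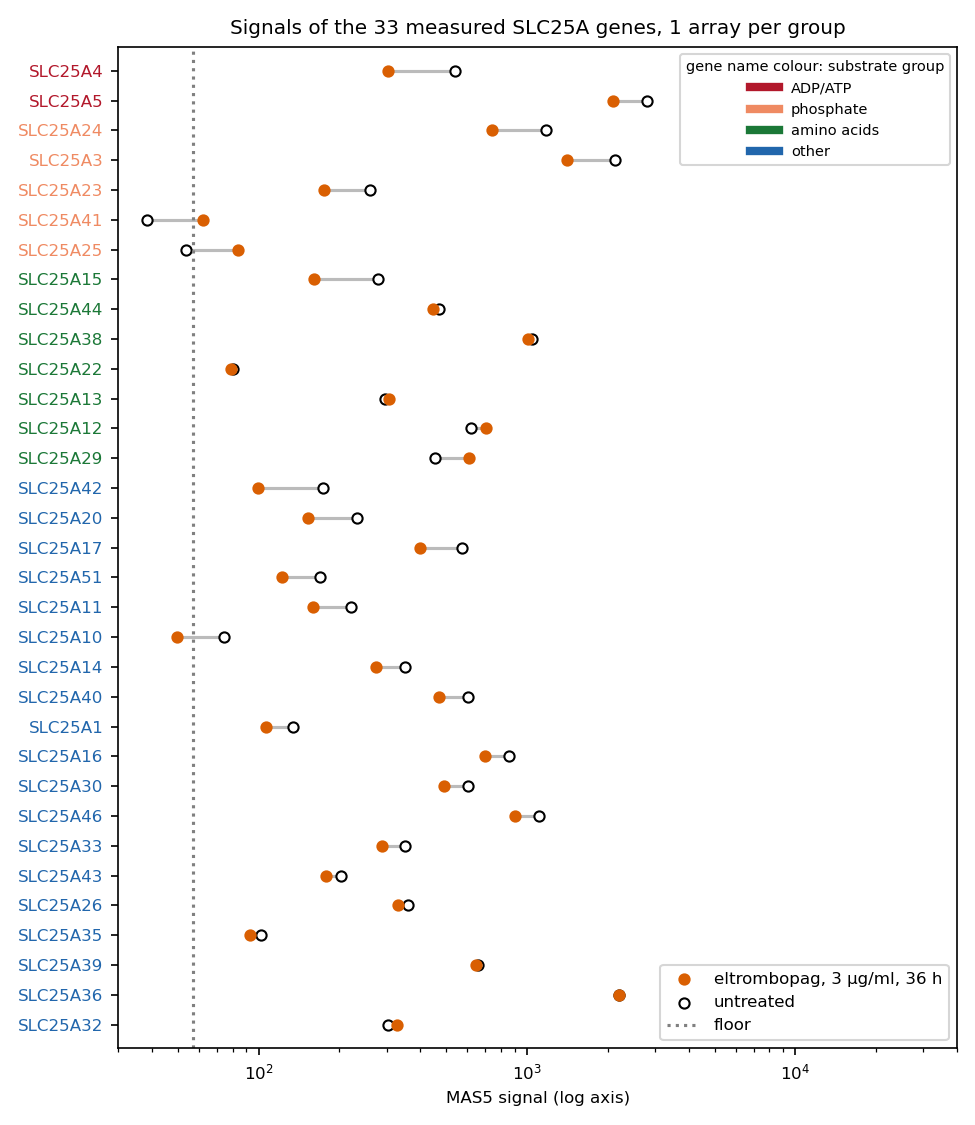
MAS5 signal of each of the 33 measured SLC25A genes (log axis), with the eltrombopag sample as filled and the untreated sample as open circles, 1 array each; names are coloured by substrate group and the dotted line is the floor of 56.9. In 26 genes the eltrombopag point lies left of the untreated point, and positions are to be compared within a gene only.

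The ADP/ATP carriers, which exchange cytosolic ADP for ATP made in the matrix, were lower in both measured genes. SLC25A4, the isoform typical of heart and muscle, had a signal of 304 in the eltrombopag sample, against 538 in the untreated sample. That is a log2 ratio of -0.82, or 1.77-fold lower, the lowest ratio among the 33 carriers. SLC25A5, the isoform typical of dividing cells, had 2091 in the eltrombopag and 2804 in the untreated sample, 1.34-fold lower (log2 ratio -0.42). Both stayed below 0 under each of the 3 other scalings, at -0.71 to -0.68 for SLC25A4 and -0.34 to -0.28 for SLC25A5. Each rests on 1 probe set above the floor. The second SLC25A4 probe set lay below the floor on both arrays, at 17.8 in the eltrombopag and 12.8 in the untreated sample. SLC25A31, the testis isoform, lay below the floor on both arrays, with signals of 1.25 in the eltrombopag and 11.1 in the untreated sample. SLC25A6 was not analysed here.

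The phosphate carrier and the ATP-Mg/phosphate carriers had ratios below 0 in 3 of 5 genes and above 0 in 2, under the deposited and the 3 other scalings. SLC25A3, which brings in the phosphate used by ATP synthase, had 1407 in the eltrombopag and 2129 in the untreated sample, 1.51-fold lower (log2 ratio -0.60). Its second probe set, at 415 in the eltrombopag and 455 in the untreated sample, gave only -0.13, and 0.01 after median centring, so neither the size nor the sign of the difference is shared by both probe sets under every scaling. The ATP-Mg/phosphate carriers adjust the adenine nucleotide pool of the matrix, most of them under the control of calcium. SLC25A24, one of these, had 739 in the eltrombopag and 1182 in the untreated sample, 1.60-fold lower (log2 ratio -0.68).

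SLC25A23, a close relative of SLC25A24, had 175 in the eltrombopag and 261 in the untreated sample, 1.49-fold lower (log2 ratio -0.58). The remaining members of this group ran the other way but near the floor. SLC25A25 was above it with eltrombopag alone, at 83.8 against 53.7 in the untreated sample, at least 1.47-fold higher. SLC25A41 was likewise at 62.0 in the eltrombopag and 38.4 in the untreated sample, at least 1.09-fold higher. The median of the 5 genes was -0.58 and their mean -0.23, and the median was -0.13 once probe sets with an _x_at or _s_at suffix, which can share sequence with other transcripts, were left out, the brighter SLC25A3 probe set among them.

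**Figure D2:**
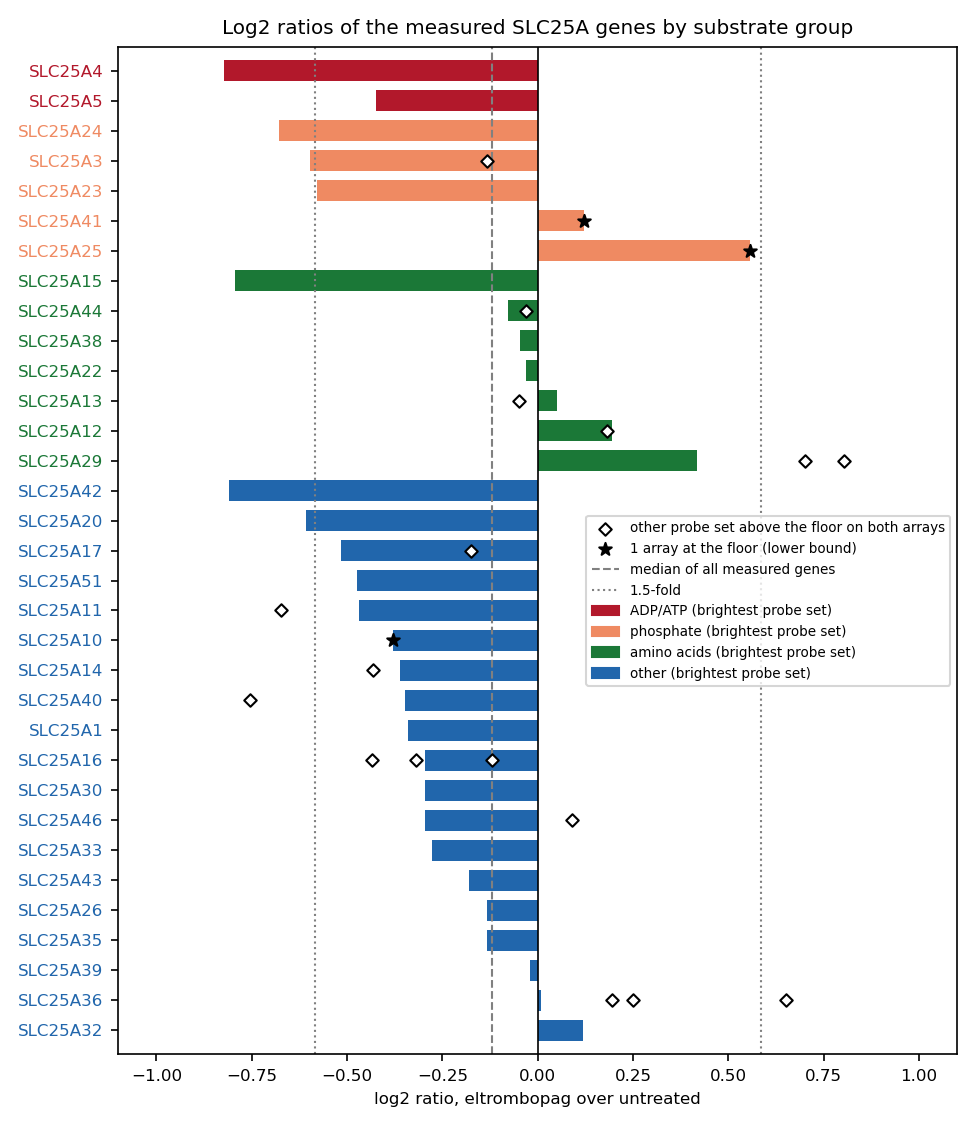
Log2 ratio of eltrombopag over untreated for the 33 measured SLC25A genes, by substrate group; bars show the brightest probe set, diamonds other probe sets above the floor on both arrays, and stars the 3 genes with 1 array at the floor. Bars of the ADP/ATP group both lie left of 0, those of the amino acid group lie close to 0 except SLC25A15 at -0.79 and SLC25A29 at 0.42, and no bar reaches 1 in size.

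The amino acid carriers stayed closest to 0, with a median of -0.03 over 7 measured genes, 3 above 0 and 4 below. The exception on the lower side was SLC25A15, the ornithine/citrulline exchanger of the urea cycle. It had 160 in the eltrombopag and 278 in the untreated sample, 1.73-fold lower (log2 ratio -0.79). Under the 3 other scalings it stayed between -0.66 and -0.65, while SLC25A22, SLC25A38 and SLC25A44 moved to above 0, so SLC25A15 was then the only measured amino acid carrier below 0. Its dimmer probe set was below the floor on both arrays, at 37.1 in the eltrombopag and 53.3 in the untreated sample.

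SLC25A29, a carrier of basic amino acids such as arginine and lysine, was the highest of the group and also had 3 probe sets above the floor on both arrays. The brightest read 609 in the eltrombopag and 456 in the untreated sample, 1.34-fold higher (log2 ratio 0.42). The others read 288 and 214 in the eltrombopag sample, against 177 and 123 in the untreated sample, with ratios of 0.70 and 0.80, so all 3 agree in sign and the dimmer ones exceed 1.5-fold. SLC25A12 and SLC25A13 exchange aspartate for glutamate and serve the malate-aspartate shuttle. SLC25A12 had 706 in the eltrombopag and 616 in the untreated sample (log2 ratio 0.20), with 0.18 in its second probe set. SLC25A13 had 305 in the eltrombopag and 295 in the untreated sample (0.05), with -0.05 in its second, and both were above 0 under the 3 other scalings.

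SLC25A38, which imports glycine for heme synthesis, was at 1007 in the eltrombopag and 1040 in the untreated sample (log2 ratio -0.05). SLC25A44, a carrier of branched-chain amino acids, was at 446 in the eltrombopag and 471 in the untreated sample (-0.08), and at -0.03 in its second probe set. SLC25A22, a glutamate carrier, was at 78.6 in the eltrombopag and 80.3 in the untreated sample (-0.03). These ratios are smaller than the usual gap between probe sets of a gene, described below. SLC25A2 and SLC25A18, carriers of ornithine and glutamate, lay below the floor on both arrays.

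Of the 19 other measured carriers, 17 had ratios below 0 (89.5%), beside 63.4% of all measured genes, and the median was -0.30. After median centring their median was -0.15, beside 0.02 for all genes, and SLC25A26, SLC25A35 and SLC25A39 were also above 0. Carriers of carboxylic acids were lower in 3 of 3 genes. SLC25A1, which exports citrate for lipid synthesis, had 106 in the eltrombopag and 135 in the untreated sample (log2 ratio -0.34). SLC25A11, the oxoglutarate/malate carrier of the malate-aspartate shuttle, had 160 in the eltrombopag and 221 in the untreated sample (-0.47), and its second probe set gave -0.67. SLC25A10, the dicarboxylate carrier, was above the floor in the untreated sample alone, at 49.6 in the eltrombopag and 74.1 in the untreated sample, at least 1.30-fold lower. None of the 3 reached 1.5-fold in the probe set that stands for it. SLC25A21, the oxodicarboxylate carrier, lay below the floor on both arrays.

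SLC25A20, which brings acylcarnitines into the matrix for fatty acid oxidation, had 153 in the eltrombopag and 233 in the untreated sample, 1.52-fold lower (log2 ratio -0.61). After the 3 other scalings its ratio lay between -0.47 and -0.46, short of 1.5-fold.

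The cofactor and nucleotide carriers ranged from -0.81 to 0.12 over 8 measured genes. SLC25A42, a coenzyme A importer, had 99.4 in the eltrombopag and 174 in the untreated sample, 1.75-fold lower (log2 ratio -0.81). This rests on a dim probe set: with the floor at the 75th percentile, a signal of 170, its ratio was -0.03. The other SLC25A42 probe sets lay below the floor on both arrays. They read 37.3, 21.35 and 7.56 in the eltrombopag sample, against 21.8, 19.2 and 5.3 in the untreated sample. SLC25A16, related to SLC25A42 by sequence, was at -0.30 in the brightest of 4 probe sets, which carries the suffix _x_at. The others were at -0.32, -0.44 and -0.12. The last of these was above 0 after median centring, at 0.03, and after quantile normalization, at 0.01. SLC25A17, a peroxisomal carrier of cofactors, had 399 in the eltrombopag and 571 in the untreated sample (-0.51), with -0.17 in its second probe set. SLC25A51, the mitochondrial NAD+ importer, had 122 in the eltrombopag and 169 in the untreated sample (-0.47).

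Carriers of nucleotides and one-carbon cofactors lay nearer to 0. SLC25A33 and SLC25A36 both carry pyrimidine nucleotides, which the mitochondria need for their own DNA and RNA. SLC25A33 had 289 in the eltrombopag and 350 in the untreated sample (log2 ratio -0.28), and SLC25A36 had 2210 in the eltrombopag and 2197 in the untreated sample (0.01). The other SLC25A36 probe sets above the floor gave 0.20, 0.25 and 0.65, so its 4 readings share a sign but not a size. SLC25A26, which imports S-adenosylmethionine, had a ratio of -0.13, and SLC25A32, of the folate and FAD supply, 0.12. The sign of SLC25A26 was above 0 after median centring, at 0.01, and below 0 after lowess and quantile normalization, at -0.01 each.

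SLC25A39 and SLC25A40 serve glutathione import. SLC25A39 had 648 in the eltrombopag and 657 in the untreated sample (log2 ratio -0.02), and SLC25A40 had 472 in the eltrombopag and 601 in the untreated sample (-0.35, and -0.75 in its second probe set). Under all 3 other scalings the ratio of SLC25A39 was above 0 and that of SLC25A40 below. Of the relatives of the uncoupling proteins, SLC25A14 was at -0.36, with -0.43 in its second probe set, and SLC25A30 at -0.30. SLC25A46 sits in the outer membrane and acts in mitochondrial fission and lipid traffic. It gave -0.29 in its brighter and 0.09 in its other probe set. Of carriers without a settled substrate, SLC25A43 was at -0.18 and SLC25A35 at -0.13; that of SLC25A35 was above 0 under the 3 other scalings.

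The 10 unmeasured carriers were SLC25A2, SLC25A18, SLC25A21, SLC25A27, SLC25A31, SLC25A34, SLC25A45, SLC25A47, SLC25A48 and SLC25A53. The probe sets that stand for them read between 1.25 and 43.3, and no ratio is given for them.

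Error can be gauged here only by how far the probe sets of a gene differ from each other, which says nothing of the spread between cultures. Across 4374 genes with at least 2 probe sets above the floor on both arrays, the brightest pair differed by a median of 0.21 in log2 ratio. The SD of these differences, divided by the square root of 2, gave an SD of 0.26 for a single ratio. For the 12 carriers with such a pair, the median difference was 0.22 and the SD, computed alike, 0.19. On the deposited scale the pair had the same sign in 10 of the 12, all but SLC25A13 and SLC25A46, and in 72.5% of all genes. On the deposited scale, the 6 carriers past 1.5-fold and SLC25A23 lay more than 2 SDs of this size below 0. After median centring only SLC25A4, SLC25A42, SLC25A15 and SLC25A24 did on the lower side, while SLC25A20, SLC25A3 and SLC25A23 were at -0.46, -0.45 and -0.43. On the upper side, SLC25A29 lay more than 2 SDs above 0 after median centring, at 0.57, but not on the deposited scale, at 0.42. SLC25A25, with 1 array at the floor, was at 0.56 on the deposited scale and 0.63 after median centring. The SD comes from probe sets above the floor on both arrays, so it does not measure the error of the SLC25A25 ratio. The second SLC25A3 probe set lay within 1 SD on the deposited scale too. Ratios between -0.26 and 0.26, such as those of SLC25A38 and SLC25A39, lie within 1 SD of 0. The brightest SLC25A36 probe set does too, at 0.01, but another of its probe sets was at 0.65.

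**Figure D3:**
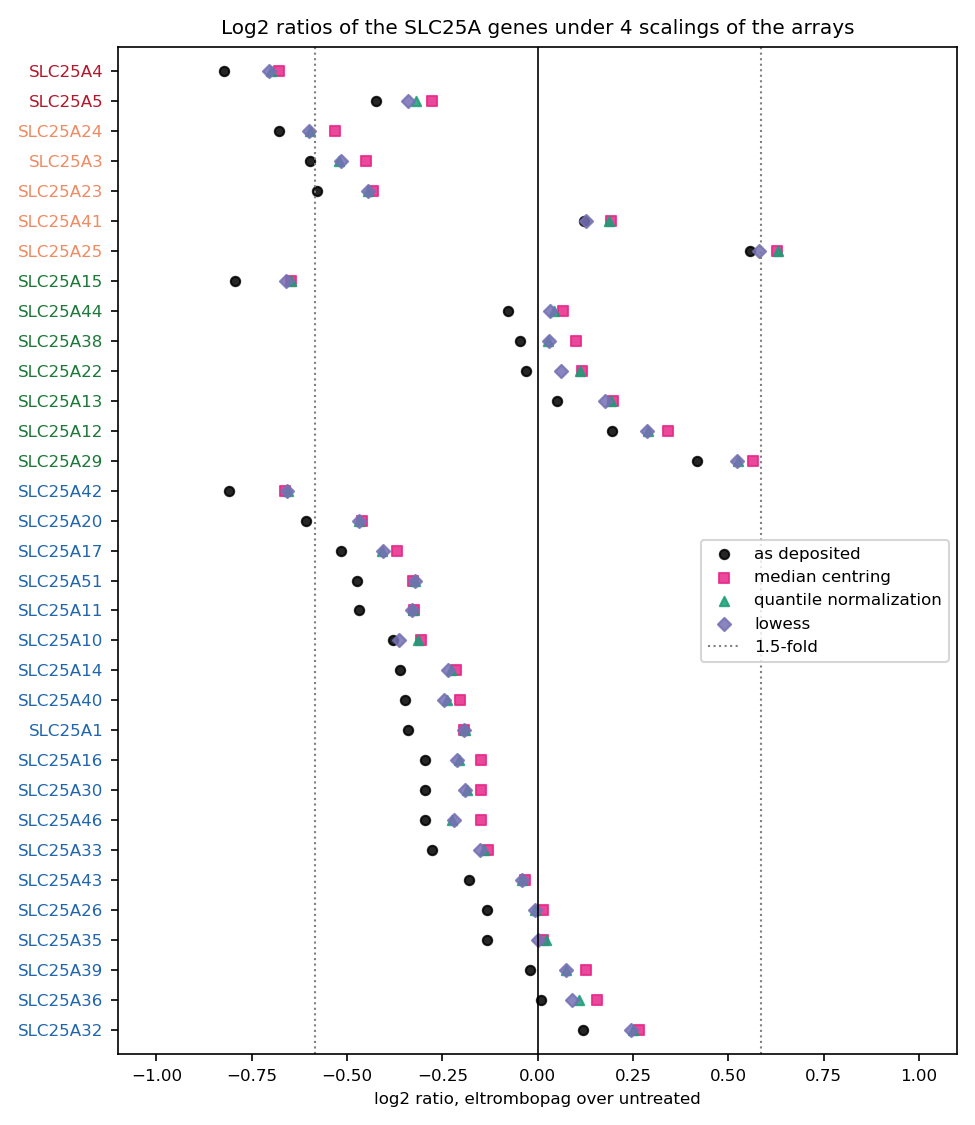
Log2 ratio of eltrombopag over untreated for each measured SLC25A gene on the deposited scale and after median centring, quantile normalization and lowess of the 2 arrays; dotted lines mark 1.5-fold. Points of a gene shift rightwards together, and 27 of 33 genes keep their sign under all 3 alternatives.

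Set beside other genes, the median of the carriers minus that of all measured genes was -0.17 on the deposited scale, and between -0.18 and -0.17 under the 3 other scalings. Other solute carrier genes, those with symbols starting in SLC but not SLC25A, had a median of -0.08 over 141 measured genes, with 63.8% below 0. Subunits of the respiratory chain and of ATP synthase had a median of -0.33 over 70 genes, on the deposited scale only. In 65 of these genes (92.9%) the ratio was below 0, beside 63.4% of all measured genes. Of these complexes, ATP synthase is the one that uses the phosphate and ADP brought in by the carriers. No test separates these lists, since each group holds 1 array.

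Genes that put the carriers into the membrane had a median below that of all genes. Carriers enter through the outer-membrane TOM complex, are escorted by small TIM chaperones and are inserted by the TIM22 complex. Of 13 measured genes of this route, 10 had ratios below 0 (76.9%), beside 63.4% of all measured genes, and the median was -0.34, beside -0.12. Under each of the 3 other scalings 9 of 13 were below 0 (69.2%), beside 47.7% to 52.9% of all genes. None was at least 2-fold higher, beside 0.650% of all measured genes, and 1 was at least 2-fold lower, beside 2.27%. That gene was TOMM22, a TOM receptor, with 235 in the eltrombopag and 488 in the untreated sample, 2.08-fold lower. The chaperones TIMM8B, TIMM10 and TIMM13 were at -0.65, -0.57 and -0.57, and TIMM9 at -0.15. TIMM22, the insertion channel, was at -0.30. TOMM70, the receptor that carriers use, was at 0.05, with 3033 in the eltrombopag and 2939 in the untreated sample.

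**Figure D4:**
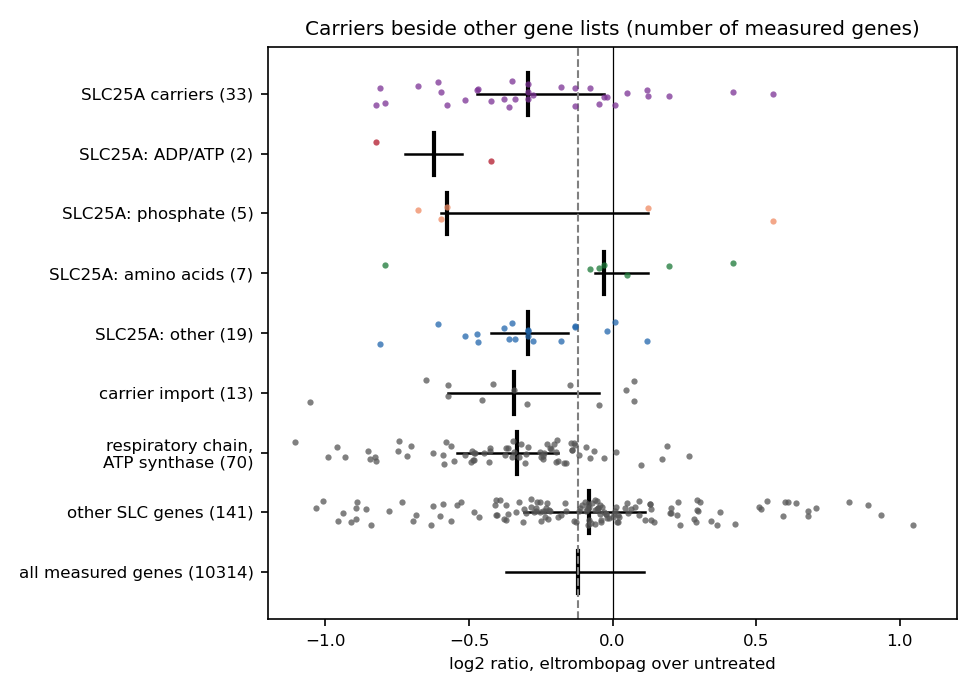
Log2 ratio of eltrombopag over untreated for the SLC25A carriers, their 4 substrate groups and comparison lists; points are genes, vertical black bars medians, horizontal bars quartiles, the dashed line the median of all 10314 measured genes, whose points are not drawn. The carriers as a whole centre at -0.30, close to the carrier import genes at -0.34 and the respiratory genes at -0.33, while other SLC genes centre at -0.08.

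Genes of the same protein family outside the definition used here lay on both sides of 0. UCP2, a relative of the uncoupling protein of brown fat that immune cells also make, had 412 in the eltrombopag and 691 in the untreated sample, 1.68-fold lower. MTCH2 and MTCH1, divergent members of the outer membrane, were 1.67-fold and 1.33-fold lower. The iron carriers SLC25A28 and SLC25A37 were higher, with log2 ratios of 0.36 and 0.40. UCP1 and UCP3 lay below the floor on both arrays.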

How the data were processed

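The table deposited by the authors gives linear signal intensities for 54613 probe sets in both samples. They were made with MAS5, per the submitters' processing notes; what it was scaled to, and which version, is not stated there. This method handles background and probe summaries array by array, so dim signals carry large relative error. Median signals were 31.5 in the eltrombopag and 32.8 in the untreated sample. The platform annotation named 1 gene for 41091 probe sets; symbols were checked through 41037 identifiers in the RefSeq table of GRCh38.p14, with 0 changed. Array coordinates were not used.

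Intensities were taken as deposited, floored, converted to log2 and subtracted, with pandas 2.3.3 and numpy 2.4.6. Every measured carrier is named. With 1 sample per group, no test was run; genes were counted at 2-fold and 1.5-fold. The members, lists and thresholds were chosen with earlier results of these data known. Alternatives were 3 scalings (lowess from statsmodels 0.14.6, span 0.3), a floor at the 50th or the 75th percentile or no floor, averaging a gene's probe sets, leaving out those with shared-sequence suffixes, agreement of at least 2 probe sets, members above the floor on both arrays alone, and the mean in place of the median. The counting at 2-fold was tested on simulated data, with differences planted in bright genes only and larger than the ratio of any measured carrier. That test says nothing of the smaller differences described here. Protein sequences were not used here, and promoters came from RefSeq.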

Additional observations from a re-analysis of the deposited data

How the results depend on the processing

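The count of carriers at least 2-fold higher or lower was 0 in each direction under every scaling, with either other floor, with probe sets averaged and without suffixed probe sets. Without a floor it was 1 higher and 3 lower, all in dim probe sets. The share of all genes past 2-fold without a floor was not counted, so these counts have no background beside them. At a threshold of 1.5-fold the count was 0 higher and 6 lower, beside 3.49% and 11.8% of all measured genes. The 6 lower at 1.5-fold became 3 of 33 (9.09%) after median centring, beside 6.85% of all genes, and 10 of 43 (23.3%) without a floor, beside 16.9%. The 0 higher became 1 of 33 after median centring, beside 6.53% of all genes, 1 after quantile normalization, beside 5.74%, 1 with probe sets averaged, beside 2.77%, and 1 of 29 with suffixed ones left out, beside 3.74%. It became 2 of 35 (5.71%) with the floor at the 50th percentile, beside 3.96%, and 4 of 43 (9.30%) without a floor, beside 12.6%. The phosphate group's median of -0.58 became -0.13 without suffixed probe sets and -0.23 as a mean; for these the construction shows the cause, a different set of probe sets and a different average. For the other changes the cause was not tested. The carriers' median stayed between -0.30 and -0.15 under these alternatives, and the amino acid group's median crossed 0, with a highest value of 0.12 after median centring. No paired analysis was possible because each group holds 1 sample. The dim signals and the single array per group limit what can be read from differences below 1.5-fold.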

Other observations

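Other transport proteins of the mitochondrial membranes, from a list of 19 genes of which 17 were measured, had a median log2 ratio of -0.19. Ratios were below 0 in 12 (70.6%), beside 63.4% of all measured genes. Past 2-fold were 0 in either direction, beside 0.650% of all measured genes higher and 2.27% lower. Among the sideroflexins, which belong to a separate carrier family and include the serine importer SFXN1, the members differed. SFXN2 had 178 in the eltrombopag and 306 in the untreated sample, 1.73-fold lower, and SFXN1 was 1.52-fold lower. SFXN3 was 1.36-fold higher, at 316 in the eltrombopag and 232 in the untreated sample. CPT2, the matrix-side acyltransferase that works beside SLC25A20, had 276 in the eltrombopag and 486 in the untreated sample, 1.76-fold lower, while CPT1A, the outer-membrane enzyme of the same route, was at 0.09. The pyruvate carrier subunits MPC1 and MPC2 were at 0.10 and -0.49, and the outer-membrane channels VDAC1, VDAC2 and VDAC3 at -0.57, -0.19 and -0.14.

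Antisense genes of the family could be read for SLC25A25-AS1, with 270 in the eltrombopag and 314 in the untreated sample (log2 ratio -0.22), and for SLC25A5-AS1, with 58.6 in the eltrombopag and 64.7 in the untreated sample (-0.14). SLC25A25 itself was higher in the eltrombopag sample by at least 1.47-fold, while SLC25A5 was lower, with a ratio of -0.42. Both antisense ratios lie within the SD of 0.26 for a single ratio. The second SLC25A5-AS1 probe set lay below the floor on both arrays, at 17.7 in the eltrombopag and 24.2 in the untreated sample. A link between antisense and sense ratios was not tested.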
